A study of Rattus norvegicus with 13 samples.

Results

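The genes described here are those of mitosis and chromosome segregation, chosen by name with earlier results of these data known. They are 60 rat genes that carry a cell from mitotic entry to the separation of the daughter cells. A gene counted as measured where the array held a probe set annotated to that gene alone. By this rule 54 of the 60 genes were measured, by 73 probe sets, among 14217 genes measured in all. Nek2, Ndc80, Kif4a, Tpx2, Ckap2 and Anln had no such probe set and were not analysed here. The 54 genes fell into 7 role groups: 8 of cyclins, CDK1 and mitotic entry, 5 mitotic kinases, 4 of anaphase onset, 13 of kinetochore, centromere and checkpoint, 10 spindle motors and microtubule proteins, 7 of the central spindle and cytokinesis, and 7 of condensin and chromosome structure.

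The study asked how glucosamine, an amino sugar taken for osteoarthritis, alters transcription in cartilage cells at rest and under interleukin-1β (IL-1β), a cytokine that drives cartilage breakdown. Chondrocytes from the femoral head cartilage of 2-month-old male Wistar rats were grown in serum-containing medium, combined at the second passage, and divided over flasks. Each Affymetrix array analysed here came from 1 flask. The paper left out some untreated and glucosamine-alone samples that failed its array quality control. The 4 cultures of the combined group (glucosamine plus IL-1β) received 20 mM glucosamine for 20 hours in all, with 10 ng/ml IL-1β added for the last 14 hours. Cultures with glucosamine alone (n = 2) received 20 mM for 20 hours, cultures with IL-1β alone (n = 4) received 10 ng/ml for 14 hours, and untreated cultures (n = 3) received neither. All flasks came from 1 pool of cells that had been expanded in monolayer, so the p-values speak only to the variation among flasks of a single pool.

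Type II collagen (Col2a1), which defines cartilage, was at 2829 ± 247, 3073 ± 142, 2812 ± 295 and 3819 ± 346 in glucosamine plus IL-1β, glucosamine, IL-1β and untreated cultures (signal of its brightest probe set, mean ± SD, n = 4, 2, 4 and 3). The dimmest of its 3 probe sets read much lower with IL-1β, at 20.6 ± 8.91, 42.0 ± 10.6, 3.76 ± 1.37 and 106 ± 11.2 in the same groups. Type I collagen (Col1a1), a fibroblast product that chondrocytes also make in monolayer, was at 3588 ± 311 in untreated cultures. All 5 cartilage markers measured (Col2a1, Acan, Hapln1, Col9a1 and Comp) averaged above the floor of 5.71, the signal under which no level was read. Of these markers, 2 were called lower than untreated with glucosamine, 5 with IL-1β and 5 with both. Over all tested probe sets, 7.56%, 13% and 12.4% were called lower in these comparisons. The leukocyte markers Ptprc and Itgam and the endothelial marker Vwf averaged near or under the floor in every group, with 8.18 the highest mean. Cd3e and Pecam1 were near the floor without IL-1β and averaged 23.7 and 15.7 in glucosamine plus IL-1β and 26.9 and 28.4 in IL-1β, highest on the replicate d arrays, and their part in the results was not tested. Both replicate d arrays stood apart at low signals: the 1st percentile of their signals was -36.8 in glucosamine plus IL-1β and -31.0 in IL-1β, and it lay between -6.47 and -4.81 on the other 11 arrays. Counts of mitosis genes in comparisons that use these arrays are given with and without them.

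A cell enters mitosis when cyclin B binds and activates the kinase CDK1. Condensin and topoisomerase II compact the chromosomes, kinetochores tie them to spindle microtubules, and the spindle checkpoint holds back the anaphase-promoting complex until every chromosome is attached. That complex then marks securin and cyclin B for destruction, sister chromatids part, and a central spindle guides the cleavage of the cell. In cycling cells most of these genes are transcribed in a burst late in the cell cycle, from promoters that carry CCAAT boxes, bound by the factor NF-Y, and a cell cycle genes homology region (CHR), bound by the MuvB complex with B-MYB or FOXM1. Mature cartilage cells rarely divide, whereas chondrocytes released into monolayer culture proliferate.

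The 54 chosen mitosis genes were lower in chondrocytes cultured with glucosamine, almost without exception. This did not extend to all mitosis genes, since among 98 further ones, described below, 38 were called lower and 5 higher. Of the 54 genes, 51 were called lower in glucosamine than in untreated cultures, 0 were called higher and 3 were not called (limma, Benjamini-Hochberg adjusted p under 0.05). Over all 29263 probe sets tested, 7.56% were called lower and 7.14% higher. The median difference of the 54 genes was -2.83 in log2 signal, so that the median gene kept 14.0% of its untreated signal, and the median over all tested probe sets was 0. The 51 genes differed by more than 2-fold in 49 cases, by more than 4-fold in 42, by more than 8-fold in 25 and by more than 16-fold in 9. On each of the 51, both glucosamine arrays lay below all 3 untreated arrays. These genes were picked by their call, so this separation is not separate evidence, and its share over all probe sets is not given here.

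Averaged over the 54 genes on the log scale, the signal was 21.9 and 19.9 on the glucosamine arrays, against 138, 139 and 139.6 on the untreated arrays. It was 21.3, 22.2, 22.6 and 25.3 on the arrays of glucosamine plus IL-1β, against 129, 159, 135 and 147 on those of IL-1β. The arrays thus formed 2 separate ranges by the presence of glucosamine, and the groups within each range differed far less. In these bulk cultures, fewer cells in or near mitosis and less RNA per such cell cannot be told apart. Of the 54 genes, 15 had already been singled out on these arrays for their response to glucosamine and are not independent evidence of a direction. Among the other 39 the count was 36 lower, with a median of -2.47. These 39 were also chosen with earlier results of these data known, so they are not independent evidence either.

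**Figure D1:**
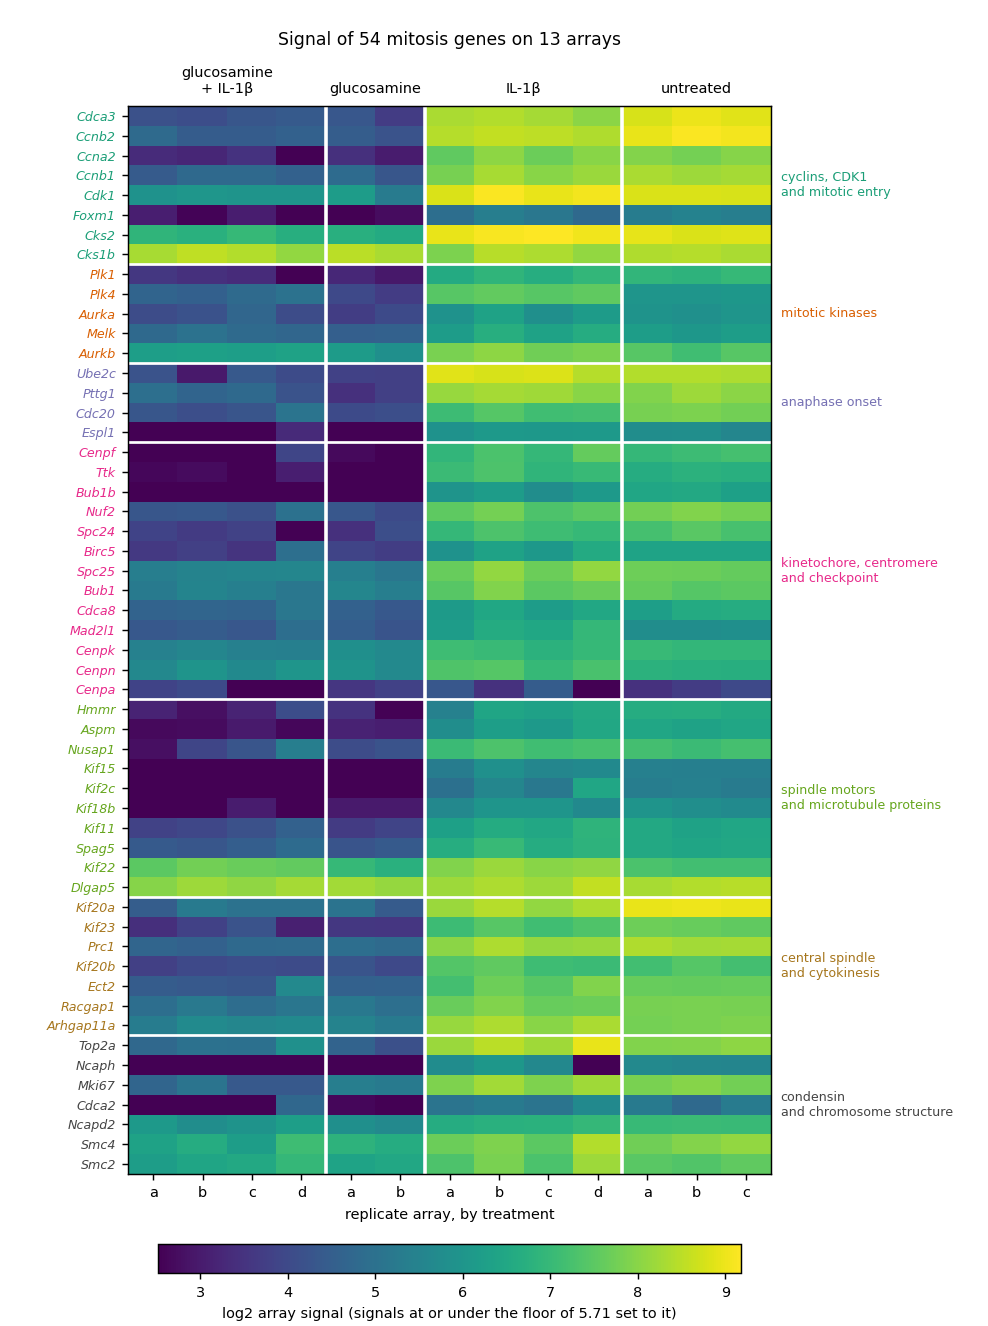
Log2 signal of the 54 measured mitosis genes (rows, by role group) on the 13 arrays (columns, by treatment), with signals at or under the floor of 5.71 drawn at the floor. The columns of glucosamine plus IL-1β and of glucosamine are dark for nearly every gene and those of IL-1β and untreated cultures are bright, while the rows of Cks1b, Dlgap5 and Cenpa show little contrast.

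Promoters of 48 of the 54 genes were found among RefSeq sequences (assembly GRCr8) that run from 250 bases before to 50 bases after the annotated start. Those of Ube2c, Ccna2, Cdca2, Aurkb, Racgap1 and Foxm1 had no entry. The windows were searched on both strands for TTTGAA, the core of the CHR, and for CCAAT, the CCAAT box. Counting each gene once, the CHR core was present in 33 of the 48 (68.8%), against 19.4% of all 27457 genes with such promoters. CCAAT was present in 36 (75.0%), against 39.6%, and both in 28 (58.3%), against 8.5%. Among 83 of the other mitosis genes described below, the shares were 32.5%, 49.4% and 14.5%. In the 48 genes the 2 kinds of match overlapped at 2 places. These are matches of letters, and binding was not measured.

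The 3 genes with the largest difference between glucosamine and untreated cultures among those with both motifs were Ccnb2 (chr8:79981609-79981908), Cenpf (chr13:103760837-103761136) and Pttg1 (chr10:28406277-28406576), and the gene with the largest difference among those with neither was Ncaph (chr3:134852453-134852752), all on the minus strand. The Ncaph difference is a bound, since both of its glucosamine arrays were under the floor, and Kif2c, in the same class, also has only a bound, so this order is that of floored signals. The promoters are shown 5′ to 3′ to place the letters beside the measured differences, with each TTTGAA and CCAAT, on either strand, in capitals.
Ccnb2: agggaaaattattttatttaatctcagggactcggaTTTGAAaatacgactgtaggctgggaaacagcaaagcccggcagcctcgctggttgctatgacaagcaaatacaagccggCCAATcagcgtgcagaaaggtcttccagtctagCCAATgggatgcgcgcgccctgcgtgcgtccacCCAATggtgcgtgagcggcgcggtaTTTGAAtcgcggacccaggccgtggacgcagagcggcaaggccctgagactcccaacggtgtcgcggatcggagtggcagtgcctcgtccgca
Cenpf: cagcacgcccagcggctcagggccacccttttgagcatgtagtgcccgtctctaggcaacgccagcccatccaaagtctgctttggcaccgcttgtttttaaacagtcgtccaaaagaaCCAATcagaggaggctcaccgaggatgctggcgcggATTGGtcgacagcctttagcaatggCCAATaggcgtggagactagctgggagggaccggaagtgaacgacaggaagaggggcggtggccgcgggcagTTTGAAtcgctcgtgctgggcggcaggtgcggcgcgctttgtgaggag
Pttg1: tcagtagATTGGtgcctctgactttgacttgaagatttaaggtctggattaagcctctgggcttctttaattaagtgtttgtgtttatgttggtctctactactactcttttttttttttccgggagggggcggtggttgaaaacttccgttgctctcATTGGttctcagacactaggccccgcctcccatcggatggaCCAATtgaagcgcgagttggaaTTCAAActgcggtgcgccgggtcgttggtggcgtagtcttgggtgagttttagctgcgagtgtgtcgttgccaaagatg
Ncaph: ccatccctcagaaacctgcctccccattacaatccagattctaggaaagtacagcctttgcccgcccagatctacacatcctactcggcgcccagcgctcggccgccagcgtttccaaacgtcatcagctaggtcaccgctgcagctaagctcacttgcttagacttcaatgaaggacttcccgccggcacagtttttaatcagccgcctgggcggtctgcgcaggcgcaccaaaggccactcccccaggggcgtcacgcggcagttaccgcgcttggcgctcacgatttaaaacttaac

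Ccnb2 held 3 CCAAT boxes, with their first bases at -134, -101 and -68 (counted from 0 at the annotated start), and TTTGAA at -214 and -43. Cenpf held 3 CCAAT boxes at -131, -95 and -70 and TTTGAA at 2, and Pttg1 held 3 CCAAT boxes at -243, -92 and -51 and TTTGAA at -29. Over the 48 promoters the median position was -98 for 83 CCAAT boxes and -44.5 for 42 TTTGAA. The promoter of Ncaph held neither. Grouped by motif, the median difference between glucosamine and untreated cultures was -3.04 in log2 signal over the 28 genes with both (26 called lower), -2.89 over the 5 with TTTGAA alone (5 called lower), -3.11 over the 8 with CCAAT alone (7 called lower) and -2.47 over the 7 with neither (7 called lower). The 3 genes that were not called, Cks1b, Cenpa and Dlgap5, each held CCAAT, and Cks1b and Cenpa held TTTGAA as well. The ranges of the 4 classes overlapped (-4.69 to 0.02, -3.92 to -1.42, -4.87 to -0.20 and -3.08 to -1.61).

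**Figure D2:**
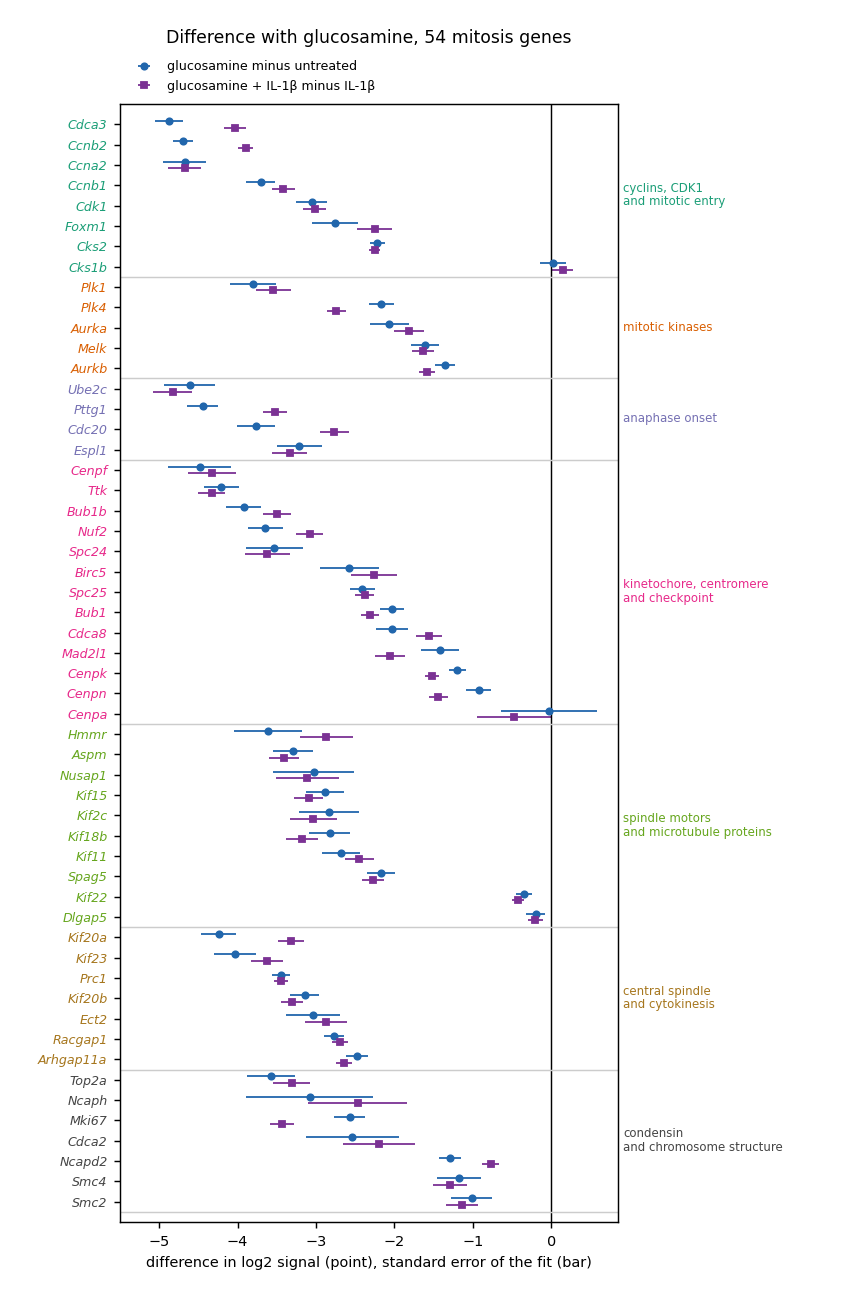
Difference in log2 signal of each of the 54 genes between glucosamine and untreated cultures (circles) and between glucosamine plus IL-1β and IL-1β (squares), with the standard error of the fit as bars, by role group. All but a few points lie between -5 and -1, and Cks1b, Dlgap5, Cenpa and Kif22 lie near 0.

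In the group of cyclins, CDK1 and mitotic entry, 7 of 8 genes were called lower with glucosamine, with a median difference of -3.38, and Cks1b was not called. Cdca3 signal was 20.1 and 13.1 on the glucosamine arrays, against 441, 510.4 and 473 on the untreated arrays, where Cdca3 encodes a trigger of mitotic entry that helps to destroy the inhibitory kinase WEE1. Ccnb2 signal was 22.5 and 18.7 on the glucosamine arrays, against 497, 562 and 535 on the untreated arrays, and Ccnb2 encodes cyclin B2, a partner of CDK1. The difference was 29.3-fold for Cdca3 (log2 -4.87 ± 0.18 SE, adjusted p = 2.9e-08) and 25.9-fold for Ccnb2 (log2 -4.69 ± 0.13, adjusted p = 2.4e-09), and no groups overlapped. Cyclin A2 (Ccna2) was 25.6-fold lower, cyclin B1 (Ccnb1) 13.03-fold lower and CDK1 itself 8.30-fold lower in glucosamine cultures. The transcription factor gene Foxm1, which drives many genes of this set, was at least 6.76-fold lower (adjusted p = 6.4e-05).

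CKS proteins are small subunits that help CDK1 find its substrates, and 2 genes for them were measured. Cks2 was 4.66-fold lower with glucosamine (log2 -2.22 ± 0.09, adjusted p = 9.9e-08). Cks1b signal was 358 and 321 on the glucosamine arrays, against 332, 345 and 324 on the untreated arrays. The Cks1b groups overlapped, and the difference was 0.02 ± 0.17 in log2 signal (adjusted p = 1). A second probe set of Cks1b gave 0.14 ± 0.11 (adjusted p = 0.63).

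All 5 mitotic kinases measured were called lower, with a median difference of -2.06. Polo-like kinase 1 (Plk1) acts from centrosome maturation to cytokinesis, and Plk4 starts the duplication of centrioles. Plk1 signal was 9.48 and 7.69 on the glucosamine arrays, against 119, 113 and 127 on the untreated arrays, a 14.0-fold difference (adjusted p = 5.6e-06). Plk4 signal was 15.7 and 13.02 on the glucosamine arrays, against 63.2, 63.1 and 66.3 on the untreated arrays, a 4.48-fold difference (adjusted p = 4e-06). Aurkb signal was 71.8 and 57.0 on the glucosamine arrays, against 176, 141 and 174 on the untreated arrays. The groups did not overlap for any of these, but Aurkb, the kinase that corrects faulty attachments of chromosomes, kept 39.2% of its signal while Plk1 kept 7.14%. Aurora A (Aurka) was 4.18-fold lower and Melk 3.05-fold lower.

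The 4 genes of anaphase onset were all called lower, with a median difference of -4.10. Ube2c, the enzyme that starts ubiquitin chains for the anaphase-promoting complex, had a signal of 13.9 and 13.7 on the glucosamine arrays, against 342, 343 and 328 on the untreated arrays. Pttg1, which encodes securin, the inhibitor of separase, had 10.8 and 13.8 on the glucosamine arrays, against 243, 296 and 260.4 on the untreated arrays. Separase itself (Espl1), which cuts cohesin, had 3.00 and 5.32, both under the floor, against 55.4, 56.3 and 47.7 on the untreated arrays. Each gene thus had its glucosamine arrays far under its untreated arrays: Ube2c was 24.5-fold lower (log2 -4.61 ± 0.32, adjusted p = 2.6e-06), Pttg1 21.8-fold lower (adjusted p = 1.4e-07) and Espl1 at least 9.28-fold lower (adjusted p = 1.8e-05). The activator Cdc20, through which the checkpoint restrains the complex, was 13.6-fold lower.

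Among 13 genes of kinetochore, centromere and checkpoint, 12 were called lower, with a median difference of -2.41. Cenpf signal was 6.41 and 1.04 on the glucosamine arrays, against 124, 135 and 147 on the untreated arrays. Cenpf encodes a large protein of the outer kinetochore, and its signal was at least 22.4-fold lower (log2 -4.48 ± 0.40, adjusted p = 1.8e-05). Ttk signal was 4.94 and 3.10 on the glucosamine arrays, against 99.9, 111 and 106 on the untreated arrays, and Ttk encodes MPS1, the kinase that sets off the spindle checkpoint. Both glucosamine arrays of Ttk were under the floor, which makes the gene at least 18.5-fold lower (adjusted p = 5e-07). The checkpoint proteins Bub1b and Bub1 were at least 15.2-fold and 4.10-fold lower, and the microtubule-binding subunits Nuf2, Spc24 and Spc25 12.5-fold, 11.6-fold and 5.31-fold lower. Survivin (Birc5) and borealin (Cdca8), which carry Aurora B to centromeres, were 5.95-fold and 4.09-fold lower, and the checkpoint protein Mad2l1 2.67-fold lower. The smallest differences among those called were -0.92 for Cenpn and -1.20 for Cenpk, 2 proteins of the inner kinetochore that stays on centromeres throughout the cell cycle. Cenpa, the histone variant that marks centromeres, had 11.9 and 13.9 on the glucosamine arrays, against 11, 12.97 and 15.9 on the untreated arrays. All these Cenpa signals were close to the floor, which leaves little room for a fall to be seen, and the difference was -0.03 ± 0.62 in log2 signal.

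Of 10 spindle motors and microtubule proteins, 9 were called lower, with a median difference of -2.83. Hmmr signal was 11.3 and 5.88 on the glucosamine arrays, against 100.1, 102 and 95.4 on the untreated arrays, and Hmmr encodes a spindle protein that also binds hyaluronan, a component of cartilage matrix. Aspm signal was 8.97 and 8.50 on the glucosamine arrays, against 87.9, 81.8 and 87.7 on the untreated arrays, and Aspm encodes a protein of the spindle poles. Hmmr was 12.2-fold lower (adjusted p = 0.00015) and Aspm 9.82-fold lower (adjusted p = 5.1e-06). The microtubule-binding proteins Nusap1 and Spag5 were 8.17-fold and 4.5-fold lower. Among kinesins, Kif15 was at least 7.40-fold, Kif2c at least 7.14-fold, Kif18b 7.10-fold and Kif11, which pushes the spindle poles apart, 6.43-fold lower. Kif22, a motor that moves chromosome arms, had 125 and 107 on the glucosamine arrays, against 156, 142 and 143 on the untreated arrays. That difference was only 1.27-fold (log2 -0.34 ± 0.10, adjusted p = 0.046), and it lost its call in 12 of 22 other settings of the fit, among them without glucosamine replicate b (adjusted p = 0.42), without any 1 untreated array and after quantile normalization (adjusted p = 0.066). Dlgap5 signal was 308 and 281 on the glucosamine arrays, against 319, 339.8 and 353 on the untreated arrays. Dlgap5, which stabilizes spindle fibers at kinetochores, did not overlap between the groups but was not called (log2 -0.20 ± 0.12, adjusted p = 0.41).

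All 7 genes of the central spindle and cytokinesis were called lower, with a median difference of -3.14. Kif20a signal was 33.5 and 21.4 on the glucosamine arrays, against 502, 515 and 502 on the untreated arrays. Kif23 signal was 12.2 and 11.9 on the glucosamine arrays, against 208, 198 and 186 on the untreated arrays. These motors bundle microtubules between the parting chromosomes, and neither had an untreated array within reach of a glucosamine array: Kif20a was 18.9-fold lower (log2 -4.24 ± 0.22, adjusted p = 4e-07) and Kif23 16.4-fold lower (adjusted p = 2e-06). Kif20b, a further motor of the central spindle, was 8.84-fold lower, Prc1, which cross-links these microtubules, 10.9-fold lower, and Racgap1 and Ect2, which position and switch on the contractile ring, 6.81-fold and 8.19-fold lower. The smallest difference was that of Arhgap11a, with 44.9 and 38.2 on the glucosamine arrays, against 222, 230.4 and 237 on the untreated arrays, still 5.56-fold.

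All 7 genes of condensin and chromosome structure were called lower, with a median difference of -2.54. Top2a signal was 24.8 and 17.7 on the glucosamine arrays, against 241, 245 and 266 on the untreated arrays, and Top2a encodes topoisomerase IIα, which untangles sister chromatids. Ncaph signal was -36.7 and -43.2 on the glucosamine arrays, against 50.1, 47.8 and 47.0 on the untreated arrays, and the glucosamine values were below 0 and give no level. Top2a was 11.9-fold lower (adjusted p = 1.3e-05) and Ncaph at least 8.45-fold lower (adjusted p = 0.024). Smc2 signal was 83.1 and 91.5 on the glucosamine arrays, against 178, 164 and 187 on the untreated arrays. Smc2 and Smc4, the paired ATPases at the core of condensin, differed by 2.02-fold (adjusted p = 0.023) and 2.27-fold (adjusted p = 0.013), less than most genes of the set. The condensin subunit Ncapd2 was 2.45-fold lower, Cdca2, which recruits a phosphatase to chromosomes, at least 5.8-fold lower and the proliferation marker Mki67, which coats mitotic chromosomes, 5.94-fold lower. Smc2, Smc4, Ncaph and Cdca2 lost their calls when either glucosamine array was left out, a fit in which the 1 remaining array took its variance from the other groups. Ncaph also lost its call without any 1 untreated array, Smc2 without untreated replicate a or c, Smc4 without untreated replicate c, and Cdca2 with the floor at the 10th percentile.

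**Figure D3:**
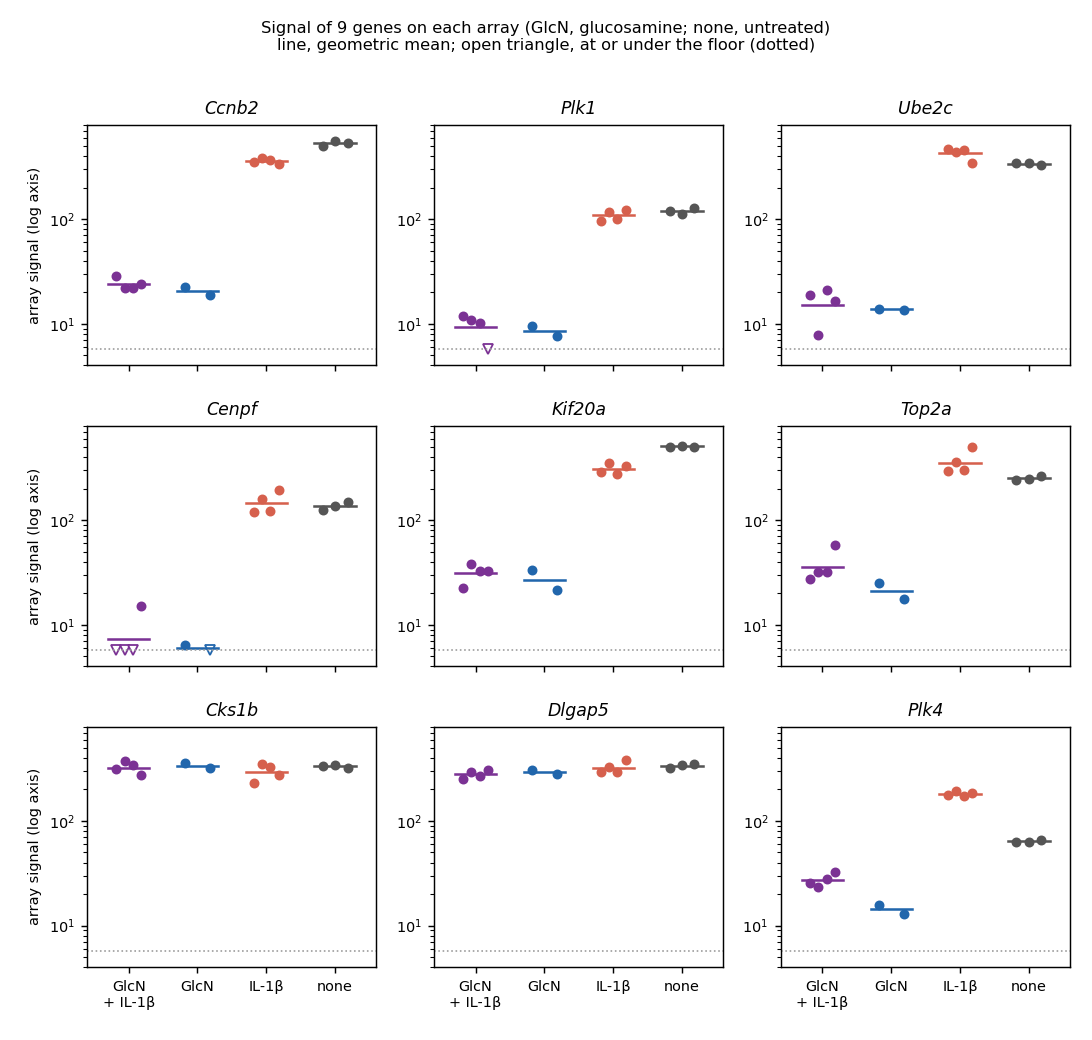
Signal on each array (log axis) of 9 genes in cultures with glucosamine plus IL-1β, glucosamine, IL-1β and no treatment. Lines are geometric means, the dotted line is the floor of 5.71, and open triangles are arrays at or under it. Ccnb2, Plk1, Ube2c, Cenpf, Kif20a and Top2a fall into a low pair and a high pair of groups, Cks1b and Dlgap5 stay level, and Plk4 takes 4 different levels.

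Of the 54 genes, 39 had 1 probe set and 15 had several. Among the 19 probe sets beside those used above, 14 were called lower with glucosamine, 0 higher and 5 were not called. The 5 were a probe set each of Cks1b, Foxm1 and Mad2l1 and a pair of Cdc20. The second probe set of Foxm1 averaged 0.590 ± 0.144 in glucosamine and 5.32 ± 2.47 in untreated cultures, at or under the floor in both. The probe sets of Cdc20 disagreed: 2 further ones were called lower, as was the one used, while 1 averaged 35.9 ± 6.45 in glucosamine and 38.0 ± 10.4 in untreated cultures and was not called.

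The same comparison could be made in cultures that also received IL-1β, on 8 arrays outside the groups of the first comparison. All 13 arrays entered 1 fit, so the calls of both comparisons rest on a shared estimate of variance. In glucosamine plus IL-1β, 51 of the 54 genes were called lower than in IL-1β alone and 0 higher, where 11.4% of all tested probe sets were called lower and 11.9% higher. These were the same 51 genes, and Cks1b, Cenpa and Dlgap5 were again not called. The median difference was -2.82 (14.2% of the signal was left), and the median over all tested probe sets was 0.03. Without both replicate d arrays the count was 51 and the median -2.99. Between the 2 comparisons 40 of the 54 genes agreed within 0.5 in log2 difference, the largest gap was 1.00, and across the 54 genes, which are not independent replicates, r was 0.95.

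With IL-1β present, Ube2c was at 18.7, 7.89, 20.9 and 16.4 on the arrays of glucosamine plus IL-1β, against 471, 437, 457 and 348 on those of IL-1β, 28.4-fold lower (log2 -4.83 ± 0.25, adjusted p = 9.6e-08). Cdca3 had 17.8, 17.0, 19.6 and 21.0 on the arrays of glucosamine plus IL-1β, against 322, 344, 309.8 and 260.5 on those of IL-1β. Cenpf had -2.55, 1.46, 3.12 and 15.1, against 121, 158, 123 and 196 in IL-1β. Only the replicate d array of Cenpf exceeded the floor in the combined group, and the groups stayed apart for all 3 genes. Ccnb2 had 28.4, 22.03, 22.1 and 24.2 on the arrays of glucosamine plus IL-1β, against 349, 382, 365 and 337 on those of IL-1β, 14.9-fold lower. Plk1 had 12, 10.9, 10.1 and 2.68, against 95.9, 118, 101 and 122 in IL-1β, and was at least 11.7-fold lower. The groups of Ccnb2 and Plk1 did not overlap either.

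Among the 51 genes, picked by their call and so no separate evidence, 50 had all 4 arrays of glucosamine plus IL-1β below all 4 of IL-1β. The exception was Ncaph, with -42.7, -42.6, -32.0 and -200.3 on the arrays of glucosamine plus IL-1β, against 53.7, 65.9, 49.6 and -48.2 on those of IL-1β, where replicate d was below 0 in both groups. Against untreated cultures, glucosamine plus IL-1β had 50 of the 54 genes lower and 1 higher (Kif22, 1.34-fold), with a median of -2.83, where 12.4% of all tested probe sets were called lower and 11.5% higher. Without both replicate d arrays 52 genes were called, with Dlgap5 added. The untreated arrays also serve the comparison of glucosamine alone.

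**Figure D4:**
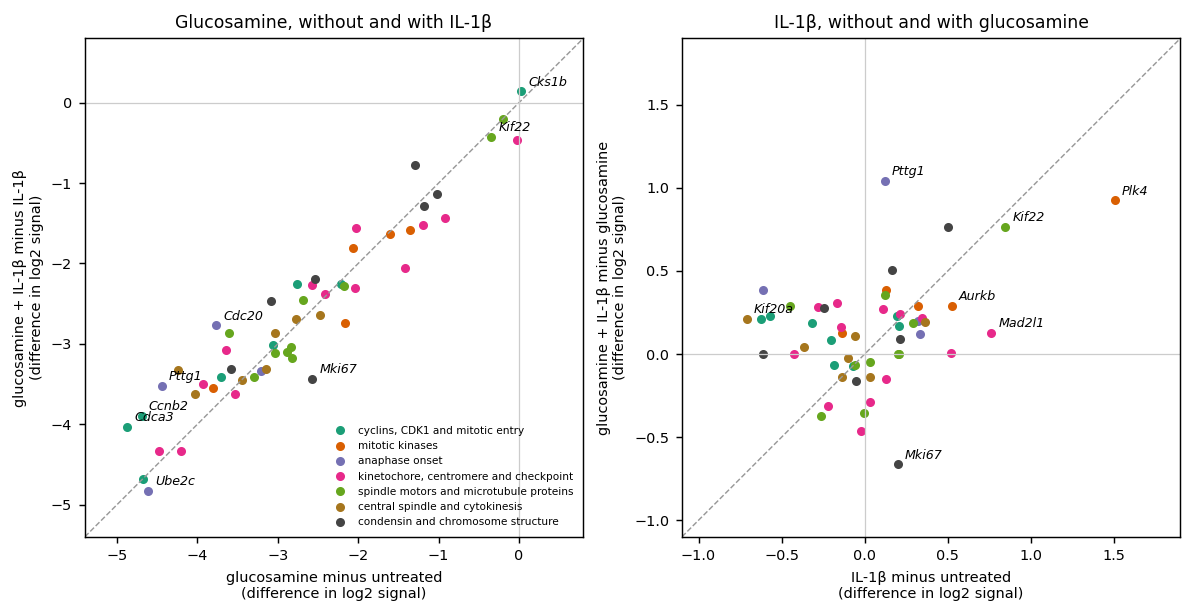
Left, difference in log2 signal between glucosamine and untreated cultures (x axis) and between glucosamine plus IL-1β and IL-1β (y axis), 1 point per gene, 54 genes. Right, difference between IL-1β and untreated cultures (x axis) and between glucosamine plus IL-1β and glucosamine (y axis). Dashed lines mark equal differences, the 2 axes of a panel share no arrays, and points on the left follow the line from -5 to 0 while those on the right gather around 0 with Plk4 and Kif22 high on both axes.

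With IL-1β alone most mitosis genes stayed close to their untreated level, and 44 of the 54 differed from it by less than 0.5 in log2 signal. In all, 4 genes were called lower and 6 higher, where 13% of all tested probe sets were called lower and 11.1% higher, so that calls were no more frequent here than over the whole array. The median difference was 0.03, and that of all tested probe sets was 0.10 (0 after quantile normalization). The largest was that of Plk4, the centriole kinase, with 176, 193, 174 and 187 on the IL-1β arrays, against 63.2, 63.1 and 66.3 on the untreated arrays, 2.84-fold higher (log2 1.504 ± 0.13, adjusted p = 5.4e-06). Kif22 had 244, 289, 253 and 271 on the IL-1β arrays, against 156, 142 and 143 on the untreated arrays (1.80-fold higher, adjusted p = 1.7e-05). Neither gene had overlapping groups.

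The checkpoint protein gene Mad2l1 had 73.8, 97.8, 89.0 and 124 on the IL-1β arrays, against 54.6, 55.1 and 57.3 on the untreated arrays (1.70-fold higher, adjusted p = 0.017). Aurkb had 229, 267, 215 and 231 on the IL-1β arrays, against 176, 141 and 174 on the untreated arrays (1.44-fold higher, adjusted p = 0.0036). Mad2l1 and Aurkb did not overlap between groups, and Cenpn (1.43-fold) and Arhgap11a (1.29-fold) were also higher. Mad2l1 and Arhgap11a were no longer called when any 1 of the 3 untreated arrays was left out, Arhgap11a lost its call in 11 of 22 other settings, among them without IL-1β replicate a, b or d and without both replicate d arrays, and Cenpn was not called without untreated replicate c.

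Of the 4 genes that were lower with IL-1β, Kif20a had 289, 349, 276 and 329.9 on the IL-1β arrays, against 502, 515 and 502 on the untreated arrays (1.64-fold lower, adjusted p = 0.014). Cdca3 had 322, 344, 309.8 and 260.5, against 441, 510.4 and 473 in untreated cultures (1.54-fold lower, adjusted p = 0.0088). Every IL-1β array of Kif20a and Cdca3 lay below every untreated array. The other genes were Cdc20, with 135, 171, 141 and 146 in IL-1β, against 227, 234 and 216 in untreated cultures (1.53-fold lower, adjusted p = 0.044), and Ccnb2, 1.48-fold lower (adjusted p = 0.0017 and 0.08 after quantile normalization). The count without both replicate d arrays was 6 lower and 5 higher, with 9 of the 10 genes shared. Cdc20 lost its call in 11 of 22 other settings of the fit, among them without any 1 untreated array and without IL-1β replicate a, c or d, and Kif20a was not called without untreated replicate b.

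Over a background of glucosamine, IL-1β changed few of these genes. Of the 54, 0 were called lower in glucosamine plus IL-1β than in glucosamine alone and 3 were called higher, where 0.861% and 0.933% of all tested probe sets were called. Differences ran from -0.66 (Mki67) to 1.04 (Pttg1), with a median of 0.15 that was -0.10 after quantile normalization. Plk4 had 25.5, 23.4, 28.1 and 32.7 on the arrays of glucosamine plus IL-1β, against 15.7 and 13.02 on those of glucosamine (1.9-fold higher, adjusted p = 0.0074). Kif22 had 181, 217, 202 and 191, against 125 and 107 in glucosamine (1.70-fold higher, adjusted p = 0.0015). Pttg1 had 30.9, 25.1, 27.8 and 18.6, against 10.8 and 13.8 in glucosamine (2.06-fold higher, adjusted p = 0.014). No group of these 3 genes overlapped the other, but Kif22 alone was called without glucosamine replicate b and after quantile normalization (adjusted p = 0.002, with 0.28 for Plk4 and 0.82 for Pttg1), and Pttg1 was not called without glucosamine replicate a. Without both replicate d arrays all 3 were called.

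Plk4 and Kif22 were higher with IL-1β both with and without glucosamine, and the difference between these effects was not called for either (interaction -0.58 ± 0.20 in log2 signal, adjusted p = 0.13, and -0.08 ± 0.13, adjusted p = 0.98). The interaction of Plk4 was called without both replicate d arrays and after quantile normalization (-0.93, adjusted p = 0.033). Its signal was lowest in glucosamine, then glucosamine plus IL-1β, then untreated cultures and highest in IL-1β, and no neighbors in this order overlapped.

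The interaction, which tests whether IL-1β acts differently with glucosamine than without, was called for 3 of the 54 genes, all in the positive direction, where 4.57% of all tested probe sets were called negative and 3.98% positive. Ccnb2 had an interaction of 0.80 ± 0.16 in log2 signal (adjusted p = 0.0077), with a difference of 0.23 over glucosamine and of -0.57 over untreated cultures. Cdca3 had 0.84 ± 0.23 (adjusted p = 0.041), with 0.21 over glucosamine and -0.62 over untreated cultures. Pttg1 had 0.92 ± 0.25 (adjusted p = 0.043), with 1.04 and 0.12. After quantile normalization the interactions were 0.45, 0.47 and 0.47 for Ccnb2, Cdca3 and Pttg1, and 0 of the 3 were called (adjusted p = 0.63, 0.59 and 0.83). For Ccnb2 and Cdca3 the fall with IL-1β was seen in the absence of glucosamine, and for Pttg1 the rise was seen in its presence. Of the 3, 0 were called without glucosamine replicate b, and of 22 other settings Cdca3 lost its call in 14, Pttg1 in 16 and Ccnb2 in 2.

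Of 111 further genes with a role in mitosis or in its transcription, 98 were measured. Of these, 38 were called lower with glucosamine and 5 higher, where 7.56% of all tested probe sets were called lower and 7.14% higher. The median difference of the 98 genes was -0.33, against -2.83 for the 54 genes above, of which 51 were called lower. Of further centromere and kinetochore proteins, 17 of 26 were lower and 1 higher, with a median of -1.11. Ska1, which couples kinetochores to shortening microtubules, was at least 13.6-fold lower, Kntc1, of the complex that brings dynein to kinetochores, 7.32-fold lower and Cenpw, of the inner kinetochore, 7.28-fold lower. Bub3, a checkpoint protein, was at 559 ± 67.6 in glucosamine, against 590.4 ± 22.9 in untreated cultures and Mad2l1bp, which disarms the checkpoint, at 137 ± 17.0 in glucosamine, against 97.9 ± 3.14 in untreated cultures (mean ± SD, n = 2 and 3), and neither was called (log2 -0.08 and 0.48).

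Of 17 further spindle and cytokinesis proteins, 9 were lower and 1 higher (Ndel1, 1.32-fold), with a median of -1.26. Depdc1 was at least 19.3-fold lower, the spindle fiber protein Tacc3 9.49-fold lower and the kinetochore-binding spindle protein Knstrn 8.13-fold lower. Kif2a and Clasp2, which also serve microtubules outside mitosis, were not called (log2 0.09 and 0.25). Of the condensin II subunits, Ncapg2 and Ncapd3 were 3.01-fold and 2.18-fold lower, and Ncaph2 was not called, with 123 and 135 on the glucosamine arrays, against 125, 125 and 127 on the untreated arrays.

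Of 14 core subunits of the anaphase-promoting complex, 2 were lower and 0 higher, with a median of -0.16: Anapc13 was 1.47-fold and Anapc4 1.29-fold lower, and Anapc5 and Anapc11 were not called (log2 0.03 and 0.11). The paper lists subunit 8 of this complex among the genes that glucosamine reduced most. Here the lowest difference of the 14, each represented by its brightest probe set, was -0.83, and the source of this disagreement was not tested. With IL-1β alone, 8 of these 14 subunits were lower and 0 higher (median -0.44), where 13% of all tested probe sets were lower and 11.1% higher. In glucosamine plus IL-1β 6 were higher than in IL-1β alone and 1 lower (median 0.22), where 11.9% of all tested probe sets were higher and 11.4% lower. Without both replicate d arrays these were 10 lower and 0 higher (median -0.35), and 7 higher and 2 lower (median 0.23). Calls over all probe sets also rose under this setting, from 7067 to 9701 and from 6822 to 9562 in these comparisons. Among 14 genes of cohesin and its regulators, 4 were lower with glucosamine and 2 higher, with a median of 0.03. The 2 with the largest falls act when cohesion is made or guarded in dividing cells: Esco2, which locks cohesin onto replicated chromatids, was at least 10.4-fold lower, and shugoshin 1 (Sgo1), which guards it at centromeres, at least 8.47-fold lower. The cohesin subunit Stag1 was 1.68-fold higher, and Stag2 and Pds5a were not called (log2 0.13 and 0.07).

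Of 16 further regulators of mitotic entry and exit, 4 were lower and 0 higher. Cdkn3, a phosphatase that acts on CDKs, had 61.4 and 52.0 on the glucosamine arrays, against 669, 807 and 781 on the untreated arrays, 13.3-fold lower. Gtse1, expressed late in the cell cycle, was 1.63-fold lower and the kinase Nek6 1.54-fold lower, while Nek9 and Ube2s were not called (log2 0.46 and -0.23). Of 8 measured MuvB and B-MYB genes, whose products act at CHR promoters, 0 were called lower in glucosamine than in untreated cultures and Lin37 was 1.80-fold higher. B-MYB (Mybl2) itself had 15.2 and 5.46 on the glucosamine arrays, against 29.2, 27.8 and 35.2 on the untreated arrays, with no overlap and no call (log2 -1.71 ± 0.56, adjusted p = 0.066). Rbl2 and E2f4, which repress these promoters in resting cells, were not called (log2 -0.21 and 0.44). In glucosamine plus IL-1β, 4 of the 8 genes were lower than in IL-1β alone and 1 higher (median -0.37). Over all tested probe sets, 11.4% were lower and 11.9% higher. Without both replicate d arrays 5 were lower and 2 higher in that comparison, and 1 was lower and 2 higher in glucosamine than in untreated cultures.

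**Figure D5:**
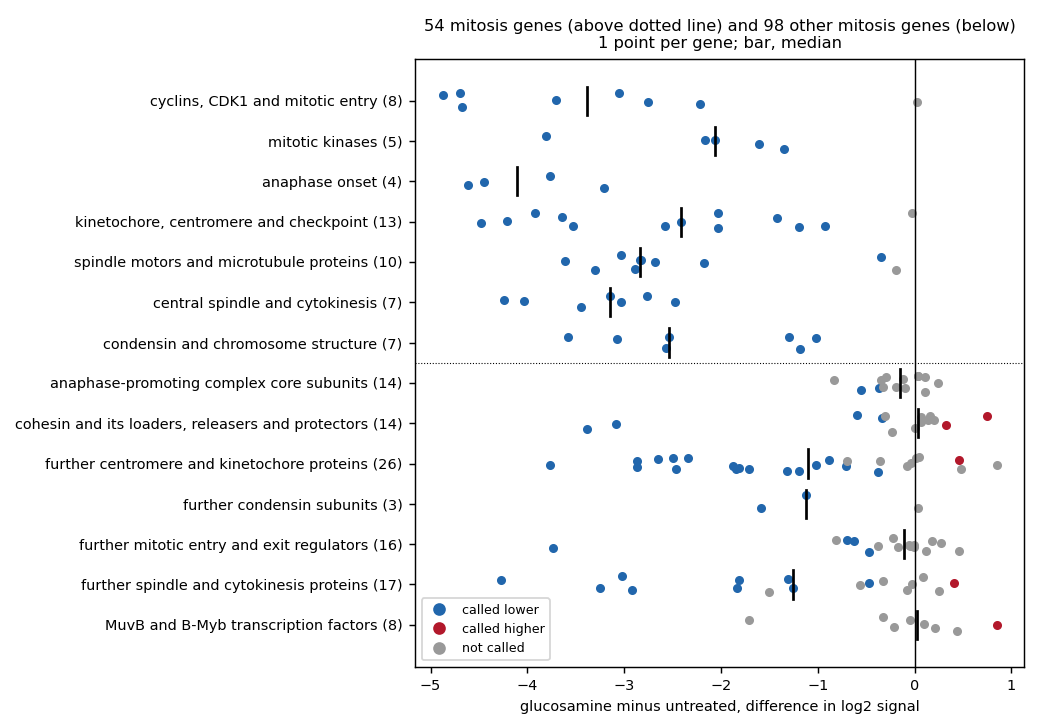
Difference in log2 signal between glucosamine and untreated cultures, 1 point per gene and a bar at the median, for the 7 role groups of the 54 mitosis genes (above the dotted line) and 7 lists of 98 other mitosis genes (below it), with the number of genes in parentheses. Points called lower fill the upper lists, whereas those of the core anaphase-promoting complex, cohesin and MuvB lists lie mostly around 0.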

How the data were processed

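The data are 13 Affymetrix Rat Genome 230 2.0 arrays, each hybridised with total RNA of 1 flask. Per the paper, RNA samples were picked within each treatment by absorbance ratio. Some untreated and glucosamine-alone samples were then left out because they failed array quality control. The authors deposited 1 signal intensity per probe set and array, computed with MAS version 5 per the submitters' processing notes, whereas the methods name Probe Profiler, which weights the probes of a set over all arrays; the values go below 0 and were already scaled, with 75th percentiles of 112 to 119 on every array. No build was stated, and read depth does not apply to arrays. Groups and replicate letters came from the sample titles.

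From the deposited intensities, 57 control probe sets were removed. Signals under the 25th percentile of all values (5.71, the floor) were set to it and log2 was taken. The 29263 probe sets above the floor on 1 or more arrays were fitted by linear models with moderated variances that follow a trend on signal (limma 3.58.1, R 4.3.3, 4 groups, 9 residual degrees of freedom), with two-sided moderated tests adjusted by Benjamini-Hochberg over all of them in each comparison, and a threshold of 0.05. Figures and counts used Python 3.11.15, pandas 2.3.3 and matplotlib 3.10.9. Fold changes are of floored signals, and where an array of the lower group was at or under the floor the fold is given as at least that value. A gene was represented by the probe set with the highest mean signal, and levels were not compared between genes, since probes differ in brightness. Probe sets were paired with genes through the platform annotation (20826 had 1 gene, 436 several and 9780 none).

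The genes and lists were chosen with earlier results of these data known. By a rule on role and size, values on each array are given for the 2 genes of each role group with the largest fall and the 1 with the smallest change, and for the genes called under IL-1β (the 4 largest in each direction). Whether replicate letters paired the flasks was checked by correlating deviations from the group means. Of 16 pairs with the same letter 7 had r over 0.1, with a range of -0.18 to 0.80; glucosamine plus IL-1β and IL-1β had 0.80 for replicate d, but with the d arrays left out r was 0.04, -0.001 and 0.05 for a, b and c, so that letters were not used as a block. Alternatives were other floors, normalizations, filters, tests and samples.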

Additional observations from a re-analysis of the deposited data

Results flagged for a closer look

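Among 48 sets of 4 arrays (24 genes in glucosamine plus IL-1β and in IL-1β), 4 held an array far from the other 3 by Dixon's test at its 95% critical value, which chance gives in about 1 of 20 sets. All 4 were replicate d arrays, which also stood apart at low signals over the whole array. Top2a was at 58.4 on the replicate d array of glucosamine plus IL-1β, and between 27.1 and 32.2 on the other 3 arrays. Cdc20 was at 33.9 on the same array, and between 17.3 and 19.6 on the other 3. Ncaph was at -200.3 on that array, against -42.7 to -32.0 on the other 3, and at -48.2 on the replicate d array of IL-1β, against 49.6 to 65.9 on the other 3. Top2a, Cdc20 and Ncaph were called lower in glucosamine plus IL-1β than in IL-1β with and without both d arrays.

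The effect of IL-1β differed with and without glucosamine for 3 genes by the interaction in limma: Ccnb2 (0.80 in log2 signal, adjusted p = 0.0077), Cdca3 (0.84, adjusted p = 0.041) and Pttg1 (0.92, adjusted p = 0.043). Ccnb2 had 28.4, 22.03, 22.1 and 24.2 in glucosamine plus IL-1β, 22.5 and 18.7 in glucosamine, 349, 382, 365 and 337 in IL-1β and 497, 562 and 535 in untreated cultures. Cdca3 had 17.8, 17.0, 19.6 and 21.0 in glucosamine plus IL-1β, 20.1 and 13.1 in glucosamine, 322, 344, 309.8 and 260.5 in IL-1β and 441, 510.4 and 473 in untreated cultures. After quantile normalization 0 of these 3 were called, without both d arrays Cdca3 was not called, and without glucosamine replicate b 0 of the 54 genes were called.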

How the results depend on the processing

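Of the 54 genes, 0 of those called changed sign with other floors, normalizations, filters or variance settings, with a replicate block or with arrays left out. Signs were not compared for the 98 further genes, nor under the analysis of variance or the fits to 2 groups alone. Glucosamine against untreated gave 44 to 51 genes under the other settings and 46 (without glucosamine replicate b) to 51 with 1 array left out, and glucosamine plus IL-1β against IL-1β gave 46 to 51 and 51 to 51. The methods' analysis of variance and Tukey test on linear values gave 44 and 46 for these comparisons, 19 genes for IL-1β against untreated (8 lower, 11 higher, where limma called 10) and 1 for glucosamine plus IL-1β against glucosamine, where limma called 3. The last comparison gave 1 gene after quantile normalization, 0 when fitted to the 2 groups alone, and 1 (without glucosamine replicate b) to 4 with 1 array left out. IL-1β against untreated gave 6 (without untreated replicate b or c) to 10 with 1 array left out. The interaction, called for 3 genes, gave 1 without a variance trend, 2 after quantile normalization (Plk4 and Cdc20, 1 in each direction, with Ccnb2, Cdca3 and Pttg1 lost), 5 without both replicate d arrays (Plk4, Cdc20 and Ncapd2 gained, Cdca3 lost), and 0 (without glucosamine replicate b) to 4 with 1 array left out. With the replicate letter as a block (replicate block) the counts were 50, 51, 11, 3, 52 and 4 for glucosamine against untreated, glucosamine plus IL-1β against IL-1β, IL-1β against untreated, glucosamine plus IL-1β against glucosamine, glucosamine plus IL-1β against untreated and the interaction. Over all probe sets, glucosamine against untreated called 4300, against 2599 without glucosamine replicate a, 2389 without b and 7108 without both replicate d arrays. Glucosamine plus IL-1β against glucosamine called 525 over all probe sets, against 242, 221 and 894 under these settings, and the interaction called 2500, against 1485, 1589 and 4253. The causes of these changes were not tested.

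Glucosamine alone had 2 arrays, so comparisons with it rest on few flasks. In all, 6 genes were at or under the floor on both of them and 4 on all 4 arrays of glucosamine plus IL-1β, where folds are lower bounds. Cenpa was near the floor in every group, and signals below 0, as for Ncaph, give no level.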
